A study of Mus musculus with 40 samples.

Results

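The genes described here encode the proteins of the cytosolic ribosome. They were taken from a table of 20593 genes as every row whose symbol names a large subunit protein (Rpl and a number, or Rplp0, Rplp1 and Rplp2) or a small subunit protein (Rps and a number, or Rpsa), provided that 5 or more of the 40 libraries had a value of 10 or higher. The rows were thus chosen by name and selected on their measured level. Of 88 rows with such a symbol, 85 reached that level, 50 named for the large and 35 for the small subunit. Rpl3l, Rpl39l and Rpl32l did not, and their highest values in any library were 12.3, 16.7 and 7.57. By the annotation 81 of the 85 are protein coding and 4, Rps3a2, Rps3a3, Rpl6l and Rps4l, are processed pseudogenes. Their level is therefore a description and not a finding.

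Messenger RNA was measured in livers of C57BL/6 mouse fetuses on gestational day 18.5. The dams had eaten their diet for 13 weeks before mating and during pregnancy. The diets were a western diet with 45% of its calories from fat and 10 mg/kg folic acid (WDF) or 2 mg/kg (WD), and a control diet with 10% of calories from fat and 10 mg/kg (CDF) or 2 mg/kg (CD). The series uses the fatty diet as a mouse model of diabetes in pregnancy. Male and female fetuses of each diet had 5 libraries each. No label ties a fetus to a dam, and litter mates may be among the replicates, so that the tests rest on the spread between libraries.

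A ribosome holds 1 copy of almost every one of its proteins, and cells make them in matched amounts. Their messages are short and very abundant, and in mammals most begin with a C followed by a run of pyrimidines, the terminal oligopyrimidine (TOP) tract, through which the kinase mTORC1 and the RNA-binding protein Larp1 set how well the messages are translated and stored. The fetal liver near birth holds growing hepatocytes and dividing blood-forming cells, both of which build many ribosomes. Red cell precursors need them in particular, as shown by the human anaemia that follows loss of a single copy of RPS19, RPL5 or RPL11. In whole liver, fewer cells of a type and less RNA per cell cannot be told apart.

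Start site sequences are shown for genes on which the results turn, so that the tract can be seen. RefSeq promoter windows on GRCm38.p6 were found for 61 of the 85 genes, as 72 windows because some genes have several starts. Each line gives 40 bases before the annotated start and 20 bases from it, in the direction of transcription, and capitals mark CTTTC on the sense strand. Rplp2 and Rpl38 varied most between libraries among the genes with a printed window, Rpl4 and Rpl5 were among those that varied least, Rpl28 is described in 2 diet comparisons, Rps6 encodes the protein that the mTORC1 pathway phosphorylates, and Rps27 and Rps27l are a gene and its second copy.
Rplp2, chr7:141447611-141447670, plus strand: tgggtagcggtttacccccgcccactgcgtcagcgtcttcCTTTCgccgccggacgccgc
Rpl38, chr11:114668540-114668599, plus strand: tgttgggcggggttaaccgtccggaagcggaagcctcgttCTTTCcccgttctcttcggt
Rpl28, chr7:4792925-4792984, plus strand: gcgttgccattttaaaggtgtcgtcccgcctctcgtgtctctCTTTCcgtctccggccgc
Rps6, chr4:86857348-86857407, minus strand: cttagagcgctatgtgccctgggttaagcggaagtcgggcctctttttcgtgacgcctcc
Rps27, chr3:90213629-90213688, minus strand: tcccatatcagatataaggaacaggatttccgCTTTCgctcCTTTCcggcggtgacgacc
Rps27l, chr9:66946046-66946105, plus strand: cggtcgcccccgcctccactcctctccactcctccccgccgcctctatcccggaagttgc
Rpl4, chr9:64173347-64173406, plus strand: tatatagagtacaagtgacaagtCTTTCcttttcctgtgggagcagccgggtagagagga
Rpl5, chr5:107900488-107900547, plus strand: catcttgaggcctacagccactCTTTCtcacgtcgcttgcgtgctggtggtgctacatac

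In Rplp2 and Rpl38 the CTTTC began at the start base itself, in Rpl28 at base 3, and in Rpl4 and Rpl5 at bases -17 and -18, upstream of the annotated start. The letters CTTTC on the sense strand between -20 and +30 stood in 29.2% of the 72 windows of ribosomal protein genes and in 6.57% of all 32851 windows. A C at the start base followed by at least 4 pyrimidines stood in 18.1% of them and in 2.50% of all windows, and with the C anywhere between -5 and +5 in 43.1% of them and 17.1% of all. On either strand of the whole window, CCGGAAG, the core that Ets factors bind, stood in 36.1% against 8.86%, AAGATGG in 16.7% against 6.34%, and GGGCGG, the Sp1 core, in 62.5% against 35.7%. TATAAA between -40 and -16 was rare in both, at 1.39% against 1.99%. These shares describe letters in the windows, and a match is not a site of binding. Among the 61 genes, the spread between libraries described below had a median SD of 0.48 in 20 genes with CTTTC in the stretch printed above and 0.44 in 41 without it.

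The label of fetal liver did not hold for 2 libraries, and some of the others held markers of other tissue or stood apart. CD females replicate 4 and CDF females replicate 5 held 7708 and 5278 normalized counts of Alb, the gene of serum albumin, against 641907 or more in every other library, and 101239 and 67014 of Sftpc, a lung surfactant gene. They are left out of all values below unless stated, which leaves 38 libraries with 4 in CDF females and 4 in CD females. CDF females replicate 4 had an Alb of 658016 but a Sftpc of 24797 and the largest total (27817 in units of 1000 normalized counts, the others between 15002 and 20809), and stands apart in nearly every gene described here. Except in fits with a covariate or other changed settings, the medians over the 85 genes in the comparisons of CDF females are given with and without it. CD females replicate 5, also kept, had an Alb of 892731 but a Sftpc of 30176, and its heart and skeletal muscle markers summed to 20230. Those muscle markers summed to 5035 in WDF females replicate 1. Sftpc was 5978 in WDF males replicate 2, 4012 in CD males replicate 5 and 2008 in WD females replicate 4. It was 1538 in CDF females replicate 2 and at most 140 in the rest of the 38. The labels name no sequencing date or batch.

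The 85 genes made up between 3.14% (WD males replicate 4) and 8.47% (CDF females replicate 4) of a library. Values are the authors' signal, called normalized counts. They look like read counts divided by size factors, but whole reads were not recovered from them. Read per kilobase of transcript, the highest means over 38 libraries were those of Rplp1, an acidic protein of the stalk that calls in elongation factors (44231 ± 21946 SD per kilobase), Rps12 (32028), Rps14 (29873), a small subunit protein whose loss causes anaemia in the human disease of the chromosome that carries it, Rps18 (28504) and Rpl41, the shortest ribosomal protein (24810). Without CDF females replicate 4 the order was Rplp1 (41695), Rps12 (30891), Rps18 (26432), Rps14 (25143) and Rpl41 (22954). The lowest were the pseudogenes Rps3a3 (16.9), Rpl6l (94.0), Rps4l (820) and Rps3a2 (1018) and the coding Rpl7l1 (534), whose yeast counterpart Rlp7 is a factor of large subunit assembly and not a part of the finished ribosome. For Rps15a and Rps20 the annotated transcript used is long, at 5130 and 3706 bases, so their low place per kilobase is uncertain. Pseudogene copies make such genes hard to count: 53 of the 85 have at least 1 copy in the table, 163 rows in all, and reads that fit both may have been split.

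The summed level of the 85 genes overlapped between all 8 groups. It ran 4.69-fold, between 503 in WD males replicate 4 and 2356 in CDF females replicate 4, in units of 1000 normalized counts, which hold for all values of this paragraph. In males it was 720, 998, 907, 810 and 835 in WDF, 992, 1029, 728, 503 and 552 in WD, 1017, 672, 729, 610 and 580 in CDF, and 615, 713, 843, 1381 and 698 in CD. In females it was 555, 677, 1037, 515 and 823 in WDF, 681, 1063, 628, 978 and 995 in WD, 660, 974, 671 and 2356 in CDF, and 618, 512, 689 and 862 in CD. Group means were 854 ± 105 in WDF males, 761 ± 243 in WD males, 722 ± 175 in CDF males and 850 ± 308 in CD males (SD, n = 5 each), and 721 ± 213 in WDF females, 869 ± 199 in WD females (n = 5 each), 1165 ± 807 in CDF females and 670 ± 147 in CD females (n = 4 each). Without replicate 4 the CDF females averaged 769 ± 178 (n = 3). The left-out libraries had 425 (CDF females replicate 5) and 451 (CD females replicate 4).

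**Figure D1:**
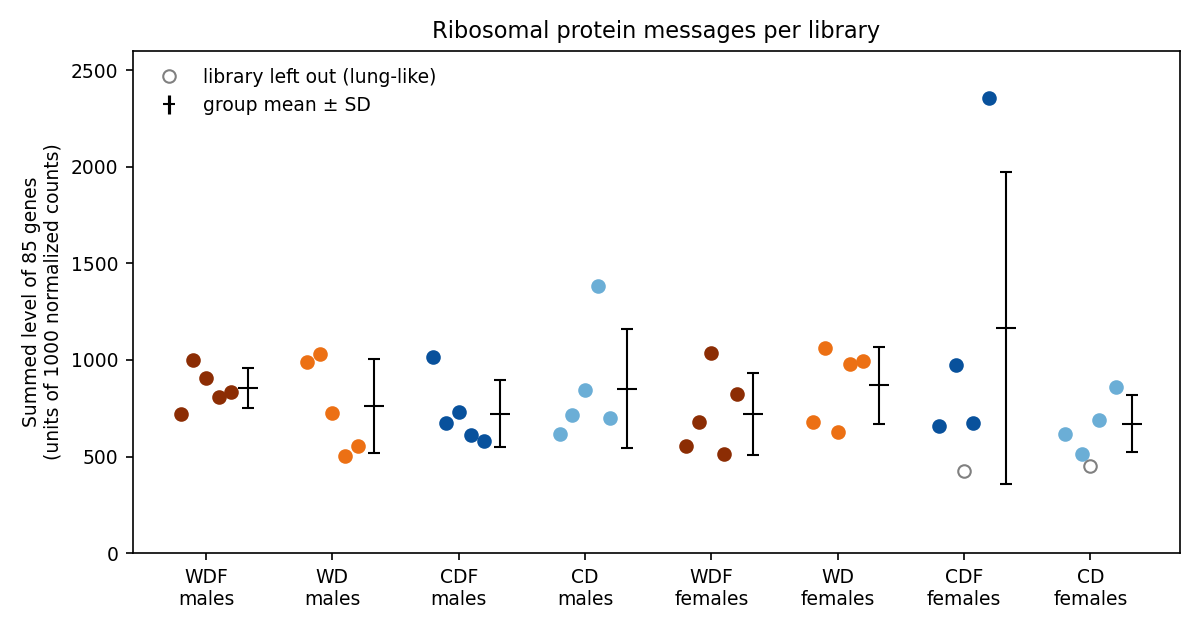
Summed level of the 85 ribosomal protein genes in units of 1000 normalized counts (vertical axis, from 0) in each library of 8 groups, with the group mean ± SD beside the points and the 2 lung-like libraries as open circles outside it. All groups overlap, and CDF females replicate 4 at 2356 and CD males replicate 4 at 1381 lie above every other library.

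The genes moved together from library to library. On the log2 scale, as the median over the 85 genes of the deviation from each gene's mean over 38 libraries, CDF females replicate 4 stood at 1.49 and CD males replicate 4 at 0.74, followed by WD females replicate 2 (0.47), WD males replicate 2 (0.43) and CDF males replicate 1 (0.42). The lowest were WD males replicate 4 (-0.66), WDF females replicate 4 (-0.62) and CD females replicate 2 (-0.58). In 9 libraries 80 or more of the 85 genes lay above their own mean, and in 13 libraries 5 or fewer did. Within groups the SD of this median deviation was 0.43. The first principal component took 91.0% of the within-group variance of the 85 genes, on log2 values, and 89.5% without CDF females replicate 4, which is a description of these libraries.

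**Figure D2:**
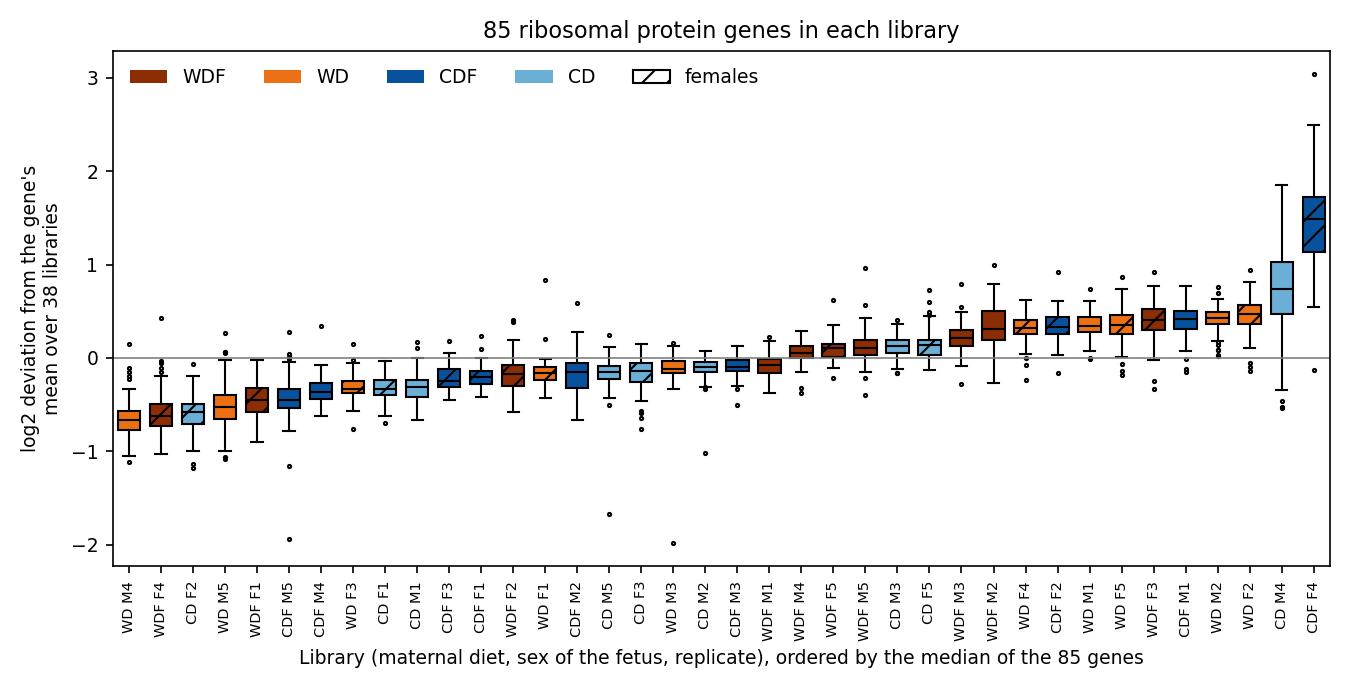
log2 deviation of each of the 85 genes from its own mean over 38 libraries (vertical axis), 1 box per library in order of its median, coloured by maternal diet and hatched for females, with boxes over the 25th to 75th percentile, whiskers to 1.5 box lengths and dots beyond. Libraries of every diet lie on both sides of 0, CDF females replicate 4 has a median of 1.49, and in 13 libraries 5 or fewer genes lie above 0.

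Other short messages moved with them, and long messages the other way. The genes have a median transcript length of 775 bases, 65 of them under 1000 bases, against 2633 bases for the other tested genes. For 1924 other genes with transcripts under 1000 bases, the same median deviation was 1.00 in CDF females replicate 4 and 0.49 in CD males replicate 4, and for 4028 other genes over 4000 bases it was -0.66 and -0.23. Of the 10 libraries highest in ribosomal protein messages, 9 were among the 10 highest in other short messages and 9 among the 10 lowest in long ones. The same 10 shared 9 with the highest in nuclear genes of oxidative phosphorylation, 9 with the highest in mitochondrial ribosomal proteins, which are built for another ribosome, and 10 with the highest in translation factors that carry TOP tracts, but 5 with the highest in factors of ribosome assembly. They shared 9 with the 10 largest library totals, 6 with the highest in red cell markers, 4 with the highest in markers of dividing cells, 3 with the highest in lung markers and 1 with the highest in hepatocyte markers. The part of transcript length, library total or cell makeup in the level of these genes was not tested beyond the covariates given below.

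**Figure D3:**
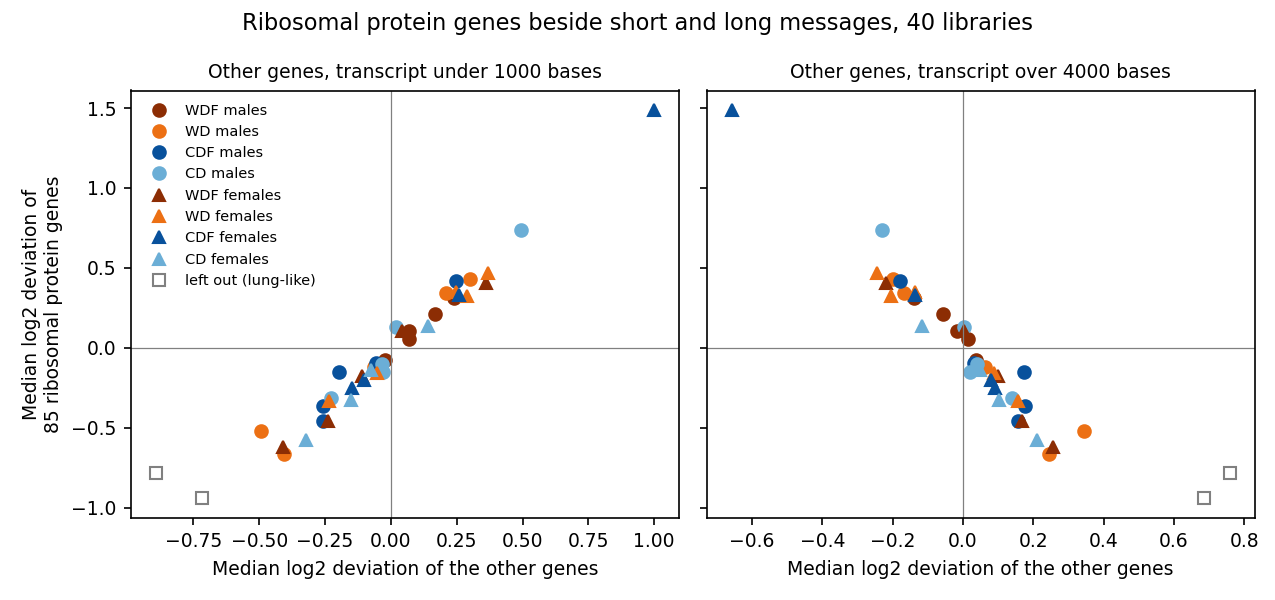
Median log2 deviation of the 85 ribosomal protein genes (vertical axis) against that of other genes with transcripts under 1000 bases (left) and over 4000 bases (right), 1 point per library, circles for males, triangles for females and open squares for the 2 lung-like libraries. The points run upward on the left and downward on the right, with CDF females replicate 4 at 1.49 against 1.00 for short and -0.66 for long messages.

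Members differed in how much of this shared movement they showed. The SD within groups of log2 values ranged between 0.15 for Rpl4, a large subunit protein that lines the exit tunnel, and 0.78 for Rplp2, the stalk partner of Rplp1, among coding genes, with a median of 0.45 over all 85. Rpl4 ran only 1.73-fold over the 38 libraries, between 11420 in CD males replicate 4 and 19814 in CDF males replicate 2, and CD males replicate 4 and CDF females replicate 4 (14928) were not high in it. Rplp2 ran 11.3-fold, with 8468, 18097, 13281, 10339 and 11811 in WDF males, 12168, 13276, 8531, 4564 and 4342 in WD males, 13501, 5725, 9198, 6728 and 5890 in CDF males, and 5711, 7456, 10110, 32796 and 6792 in CD males. It had 4911, 6076, 17108, 4472 and 11537 in WDF females, 7291, 15030, 6409, 13238 and 15106 in WD females, 6801, 13040, 6779 and 46767 in CDF females, and 6373, 4129, 5356 and 8967 in CD females. Its highest values are in the same 2 libraries, CDF females replicate 4 and CD males replicate 4, that lead the summed level.

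The other least variable coding genes were Rpl7l1 (SD 0.21), the X-linked Rps4x (0.22) and Rpl10 (0.22), Rpl3, which shapes the peptidyl transferase centre (0.24), Rpl7a (0.24) and Rpl5 (0.25), which with Rpl11 carries a small ribosomal RNA and can bind the p53 inhibitor Mdm2. Among the most variable after Rplp2 were Rps14 (0.73), Rpl38 (0.70), which in mouse embryos favours translation of Hox messages, Rps21 (0.67), Rpl13a (0.66), part of an inhibitor complex in inflamed human cells, and Rps15 (0.64). The pseudogene Rps3a3 had 0.86 at values between 2.10 and 50.8. With the 81 coding genes split at their median length of 761 bases and median GC content of 51.6%, the median SD was 0.46 for shorter genes of lower GC, 0.53 for shorter genes of higher GC, 0.36 for longer genes of lower GC and 0.44 for longer genes of higher GC. Among the genes that kept closest to the median of the others were Rpl24 (SD of the difference 0.049) and Rpl36a (0.071), and those that kept least were Rps3a3 (0.66), Rpl7l1 (0.51) and Rpl4 (0.47).

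**Figure D4:**
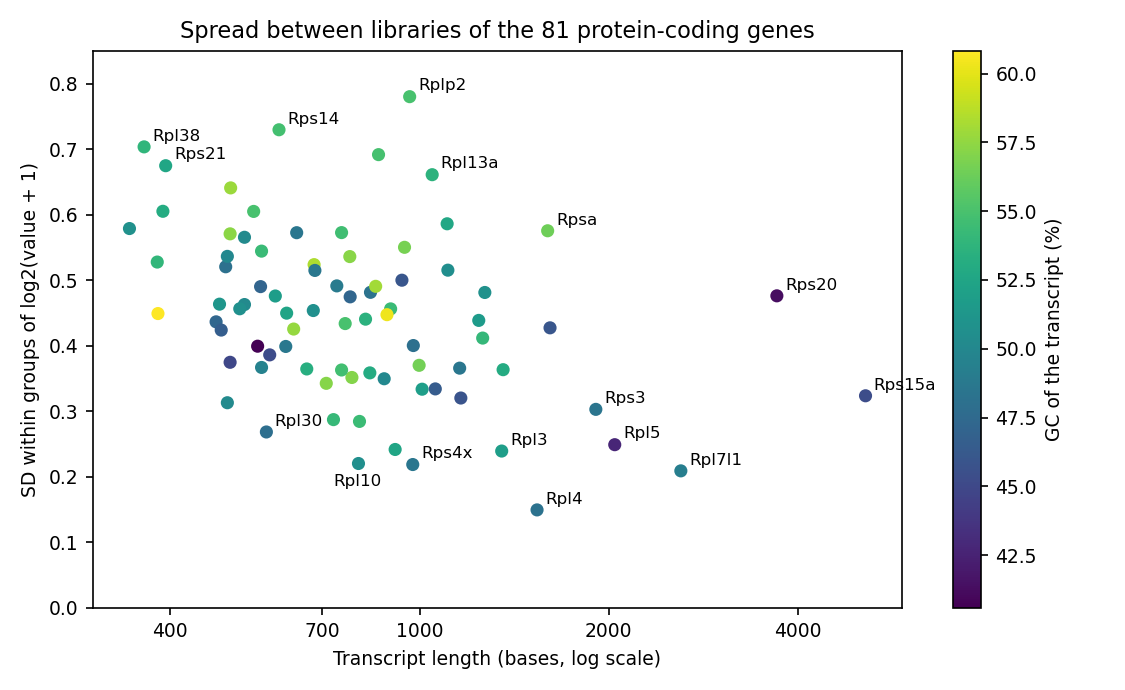
SD within groups of log2(value + 1) over 38 libraries (vertical axis) against transcript length in bases (log scale) for the 81 protein-coding genes, coloured by GC content. Rplp2 (0.78) and Rps14 (0.73) are at the top and Rpl4 (0.15) at the bottom, and Rpl7l1 (0.21) is among the lowest.

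The first question about the diets was whether a mother's high folic acid intake changed these messages at the same fat content. In females on the control diet all 85 genes were higher in CDF than in CD livers (median log2 difference 0.55, range 0.07 to 1.12; all 15377 tested genes -0.03), and none passed the test. By limma with Benjamini-Hochberg adjustment over all tested genes, 0 of 85 had an adjusted p under 0.05 (0 of all tested genes, 0%) and 24 had an unadjusted p under 0.05 (7.78% of all tested genes, given below as all genes). Rpl41 had 9141, 18511, 11558 and 50855 in CDF females and 8952, 6111, 8116 and 13686 in CD females. CDF replicate 4 is by far the highest of the 8, and the other CDF values overlap the CD values. The log2 difference of Rpl41 was 1.01 ± 0.41 SE (adjusted p = 0.507 by limma). Rpl11 had 6154, 9403, 5659 and 19055 in CDF females and 5493, 4542, 6582 and 7616 in CD females, with a log2 difference of 0.58 ± 0.25 SE (adjusted p = 0.507 by limma). The pseudogene Rpl6l, at 0.78 ± 0.33 SE, completes the 3 genes with the smallest p. Without CDF replicate 4 the median difference was 0.19, with 82 of 85 genes positive. An unadjusted p under 0.05 was then found for 0 of the 85 and for 264 of all 15305 genes tested (1196 of 15377 with it). The log2 difference without it was 0.50 ± 0.38 SE for Rpl41, 0.21 ± 0.21 SE for Rpl11 and 0.64 ± 0.35 SE for Rpl6l. CD females replicate 5, which had the highest summed level of the CD females used, was kept in both fits. It held lung and heart and skeletal muscle markers of 42055 and 20230, against 29600 and 717 in CDF replicate 4. The median without CD replicate 5 alone is not given here. Over all libraries left out in turn the median ran between 0.19 and 0.77.

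Rps14 and Rps3 show how far replicate 4 departs from its group. Rps14 had 12744, 18212, 11604 and 122324 in CDF females, against 9701, 8396, 12330 and 24570 in CD females. Rps3, which also takes part in DNA repair, had 13072, 14256, 14361 and 40001 in CDF females, against 11953, 11081, 15176 and 21140 in CD females. In both genes the highest CD value belongs to replicate 5, whose Sftpc was 30176, and its 10 lung markers summed to 42055 against 29600 in CDF females replicate 4. Over the libraries used, the 10 lung markers summed to between 174 and 29600 in CDF females and between 204 and 42055 in CD females, while groups without such a library, such as CDF males, lay between 145 and 196. Neither gene passed the test, with adjusted p = 0.507 for Rps14 and 0.509 for Rps3 by limma. Without CDF replicate 4 the log2 difference of CDF minus CD females was 0.15 for Rps14 and -0.05 for Rps3.

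In males on the control diet the genes leaned the other way. The median log2 difference of CDF minus CD males was -0.20, with 8 of 85 genes positive (all genes -0.01). By limma 0 passed (all genes 0, 0%) and 0 had an unadjusted p under 0.05 (all genes 3.49%). Rpl28, a large subunit protein, had 16734, 8801, 11436, 8193 and 7205 in CDF males and 8385, 10652, 13005, 31608 and 11494 in CD males. CD replicate 4 had the highest value of the 10. The log2 difference of Rpl28 was -0.42 ± 0.35 SE (adjusted p = 0.908 by limma). Rpl6l stood at -0.37 and Rps27 at -0.42, while Rpl7l1 (0.25), Rpl4 (0.18) and Rpl7a (0.09) had the smallest p among genes higher in CDF males. Without CD males replicate 4 the median over the 85 genes was -0.01, and without CDF males replicates 1, 4 or 5 it was -0.32, -0.13 or -0.11. CD males replicate 5 held lung markers of 6319, against at most 417 in the other CD males and 196 in CDF males. It enters both comparisons of CD males, and the part of lung tissue in them was not tested.

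On the western diet the high folic acid dose went with higher values in males and lower ones in females, within the spread. In WDF against WD males the median was 0.24 with 80 of 85 genes positive (all genes 0.01). In WDF against WD females it was -0.28 with 3 of 85 positive (all genes 0.00). By limma 0 of 85 genes passed in males (all genes 0, 0%) and 1 had an unadjusted p under 0.05 (all genes 8.81%), and in females 0 passed (all genes 0, 0%) and 0 had an unadjusted p under 0.05 (all genes 1.44%). The male median was 0.37, 0.09 or 0.12 without WD males replicates 2, 4 or 5, and the female median was -0.15 without WDF females replicate 4. WDF females replicate 1 held heart and skeletal muscle markers of 5035, against at most 107 in the other WDF females and 224 in WD females. In it 0 of the 85 genes lay above their own mean. It enters both comparisons of WDF females, and the medians without it are not given here. The part of muscle tissue in them was not tested.

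Some lists of markers of other cells leaned to one side in the male comparison. The lists of hepatocyte, neutrophil, macrophage, B cell precursor, endothelial, mesenchymal, bile duct and mesothelial markers are not given here. In WDF against WD males all 10 lung epithelium markers were higher (median log2 difference 1.73), as were all 8 megakaryocyte markers (0.54) and all 9 tested heart and skeletal muscle markers (0.70), while 0 of 10 markers of dividing cells (-0.35) and 2 of 14 red cell markers (-0.21) were. None of these markers passed the test. The lung markers summed to 9009 in WDF males replicate 2 and to between 174 and 408 in the other WDF males, against 152 to 233 in WD males. Without WDF males replicate 2 the medians were 0.37 for lung, 0.58 for megakaryocyte and 0.21 for muscle markers and 0.18 for the 85 genes. The part of these cells in the result was not tested.

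Rps23, which lies at the decoding centre, had 7352, 11445, 11141, 8928 and 11720 in WDF males and 9465, 9932, 8000, 4808 and 5321 in WD males (log2 difference 0.47 ± 0.30 SE, adjusted p = 0.650 by limma). Rpl23, a large subunit protein, stood at 0.42 and Rps28 at 0.48, and lower values were found for Rpl7l1 (-0.37), Rps3 (-0.09) and Rplp0 (-0.09). Rps15 had 6376, 8576, 16415, 5712 and 11527 in WDF females and 9785, 17357, 8029, 15763 and 16610 in WD females (log2 difference -0.52 ± 0.38 SE, adjusted p = 0.948 by limma). Rps26, which lies at the messenger RNA exit, stood at -0.43 and Rplp1 at -0.46, and the 3 positive genes were Rpl7l1 (0.12), Rpl4 (0.06) and Rpl5 (0.06).

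The second question was the effect of the western diet. At the ordinary dose the median log2 difference was -0.16 in WD against CD males, with 12 of 85 genes positive (all genes -0.02), and 0.35 in WD against CD females, with 82 positive (all genes -0.02). By limma 0 passed in males (all genes 0, 0%), where 0 had an unadjusted p under 0.05 (all genes 6.65%), and 0 passed in females (all genes 0, 0%), where 0 did (all genes 6.57%). The male median was 0.01 without CD males replicate 4, -0.02 or -0.07 without WD males replicates 4 or 5, -0.28 or -0.29 without WD males replicates 1 or 2, and -0.27 without CD males replicate 1. With the mean log2 level of red cell markers as a covariate the median was -0.37 in males and 0.11 in females. Rpl28 had 10180, 16783, 9124, 17039 and 18796 in WD females and 8456, 6313, 9454 and 10967 in CD females, so that 3 of 5 WD values lie above every CD value. Its log2 difference was 0.68 ± 0.37 SE (adjusted p = 0.662 by limma). Rps23 stood at 0.58 and Rps3a3 at 1.03, and the 3 genes below 0 were Rpl5 (-0.20), Rps3 (-0.10) and Rpl7l1 (-0.05). CD females replicate 5 holds lung markers of 42055 and heart and skeletal muscle markers of 20230, against at most 3121 and 224 in WD females and 416 and 151 in the other CD females. Without it the median was 0.47, and Rpl5 stood at -0.06, Rps3 at 0.09 and Rpl7l1 at 0.0098. The part of lung or muscle tissue in the result was not tested. In males the smallest p belonged to Rpl7l1 (0.27), Rpl4 (0.12) and Rps3 (0.20) among the positive genes and to Rps4l (-0.28), Rpl6l (-0.35) and Rpl28 (-0.42) among the negative.

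At the high dose the median was 0.27 in WDF against CDF males, with 84 of 85 genes positive (all genes 0.01), and -0.49 in WDF against CDF females, with 1 positive (all genes 0.01). By limma 0 passed in males (all genes 0, 0%) and 1 had an unadjusted p under 0.05 (all genes 6.9%), and in females 0 passed (all genes 0, 0%) and 10 had an unadjusted p under 0.05 (all genes 8.14%). Rpl3 had 10105, 11986, 12937, 11044 and 12823 in WDF females and 11371, 13266, 13101 and 28300 in CDF females (log2 difference -0.39 ± 0.17 SE, adjusted p = 0.532 by limma). Apart from CDF replicate 4 the values of both groups interleave. Rps14 stood at -1.02 ± 0.46 SE and Rps3 at -0.46 ± 0.20 SE, and the single positive gene was Rpl4 (0.03). Without CDF replicate 4 the log2 difference was -0.10 for Rpl3, -0.24 for Rps14, -0.08 for Rps3 and -0.02 for Rpl4. In males Rpl23 (0.34), Rps23 (0.49) and Rpl31 (0.39) had the smallest p among the positive genes, and the single negative gene was Rpl7l1 (-0.35). The male median was 0.41 without CDF males replicate 1 and 0.18 without CDF males replicate 5. Of the lung, megakaryocyte and heart and skeletal muscle markers 10 of 10, 8 of 8 and 8 of 9 were higher in WDF than in CDF males (medians 1.84, 0.52 and 0.78), and their part in the result was not tested. Marker lists of other cells are not given for this comparison. Without CDF females replicate 4 the female median was -0.11, with 3 of 85 genes positive. An unadjusted p under 0.05 was then found for 0 of the 85 and for 147 of all 15305 genes tested (1252 of 15377 with it).

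In none of the 8 comparisons between 2 groups did a ribosomal protein gene separate the groups completely. The share of all tested genes that did, in either direction, was 1.5% in WD against CD males, 2.56% in WD against CD females, 2.08% in WDF against CDF males, 0.735% in WDF against CDF females, 0.722% in CDF against CD males, 2.75% in CDF against CD females, 2.52% in WDF against WD males and 0.306% in WDF against WD females. These comparisons share groups, so their directions are not independent of each other.

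The effect of folic acid was then compared between the fat contents as a difference of differences, (WDF minus WD) minus (CDF minus CD). In females it was negative in 85 of 85 genes (median -0.82; all genes 0.04). By limma 0 passed (all genes 0, 0%) and 49 had an unadjusted p under 0.05 (all genes 12.9%). Without CDF females replicate 4 the median was -0.46. An unadjusted p under 0.05 was then found for 0 of the 85 and for 423 of all 15305 genes tested (1983 of 15377 with it). In males it was positive in 78 of 85 (median 0.43; all genes 0.02), where 0 passed (all genes 0, 0%) and 1 had an unadjusted p under 0.05 (all genes 12.3%). Without CD males replicate 4 the male median was 0.25. Pooled over sexes and the other factor, the western against the control diet had a median of -0.0029, with 41 of 85 genes positive, 0 past the threshold by limma (all genes 0.0455%) and 0 at an unadjusted p under 0.05 (all genes 7.5%). Without CDF females replicate 4 that median was 0.09, with 80 positive. High against ordinary folic acid had a median of 0.08, with 82 positive, 0 past the threshold (all genes 0, 0%) and 0 at an unadjusted p under 0.05 (all genes 2.33%), and without CDF females replicate 4 it was -0.02, with 31 positive.

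**Figure D5:**
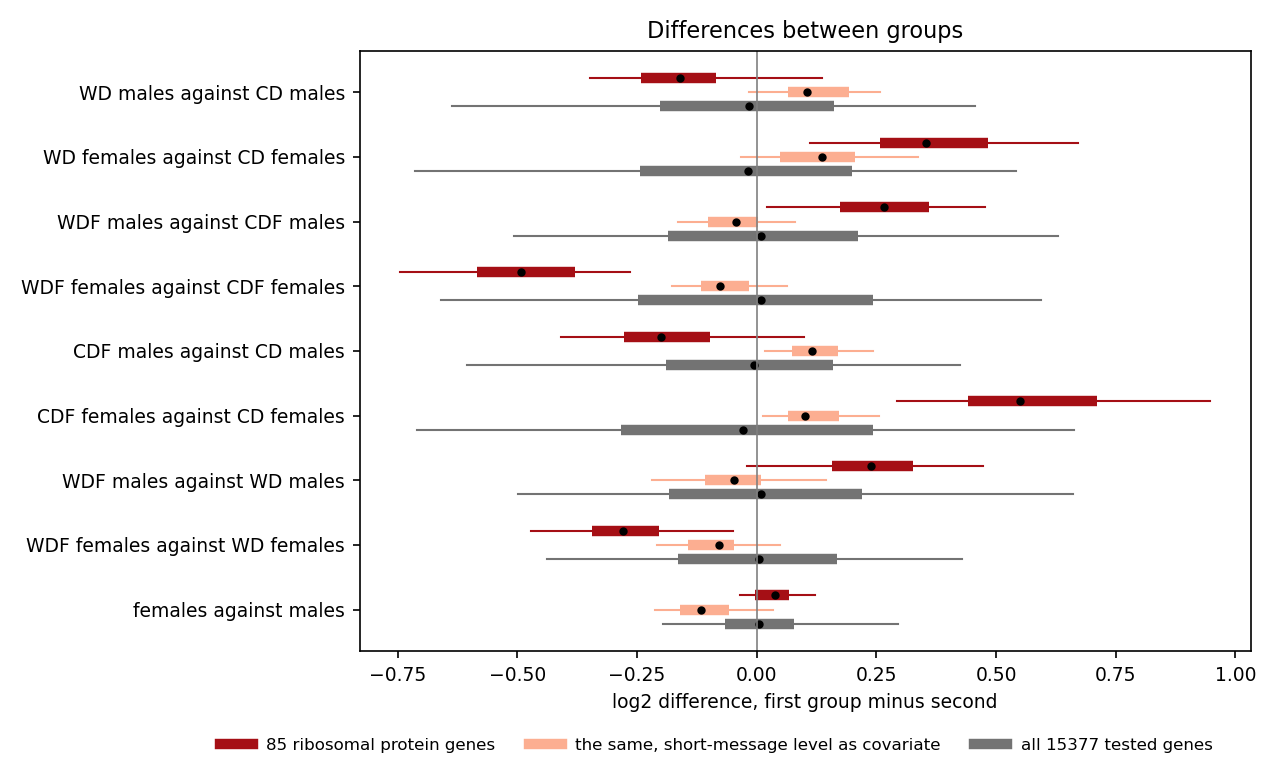
log2 differences (horizontal axis, first-named group minus second) in 9 comparisons, as the middle 90% (thin line), the 25th to 75th percentile (thick bar) and the median (dot) of the 85 ribosomal protein genes, of the same genes with the level of other short messages as a covariate, and of all 15377 tested genes. The medians of the 85 genes lie between -0.49 and 0.55 and, with the covariate, between -0.12 and 0.14.

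A fit with the median log2 level of the other short messages as a covariate, added after the data were seen, brought the medians of the 8 comparisons between 2 groups nearer to 0. They were 0.10 in WD against CD males, 0.14 in WD against CD females, -0.04 in WDF against CDF males, -0.08 in WDF against CDF females, 0.12 in CDF against CD males, 0.10 in CDF against CD females, -0.05 in WDF against WD males and -0.08 in WDF against WD females. The sign turned in all 4 male comparisons. The median of the difference of differences was -0.18 in females and -0.15 in males. In each of these fits 0 of 85 genes passed. CDF females replicate 4, the highest library in both the 85 genes and the other short messages, was in each of them. Their values without it are not given here. Of the 85, an unadjusted p under 0.05 was found for 12 in WD against CD males (all genes 10.1%), 7 in WD against CD females (8.69%), 4 in WDF against CDF males (7.06%) and 1 in WDF against CDF females (3.06%). It was found for 9 in CDF against CD males (4.6%), 1 in CDF against CD females (2.59%), 4 in WDF against WD males (11.3%) and 0 in WDF against WD females (1.81%).

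Several members are known for work beside the structure of the ribosome. Rps6, the substrate of the S6 kinases under mTORC1, had 11163, 14328, 13328, 12026 and 12737 in WDF males, 15882, 15881, 11376, 8119 and 9203 in WD males, 15236, 11921, 11759, 9667 and 8649 in CDF males, and 10262, 12001, 14255, 19369 and 10620 in CD males. It had 8745, 11398, 15458, 8515 and 13182 in WDF females, 11497, 15190, 10300, 15587 and 14535 in WD females, 10654, 13850, 10168 and 22782 in CDF females, and 10363, 8476, 10952 and 12257 in CD females. The groups overlap throughout. Rps19, the gene most often lost in the human anaemia named above, had 4889, 5604, 10674, 4579 and 8203 in WDF females, 5229, 9077, 5421, 8526 and 10555 in WD females, 5507, 10670, 5915 and 26898 in CDF females, and 5199, 4424, 6029 and 8408 in CD females. Its log2 difference was 0.75 in CDF against CD females, beside 0.38 for Rps6, 0.79 for Rpsa, 0.95 for Rpl13a, 0.66 for Rps27a and 0.21 for Rpl5, and none of these passed. Without CDF replicate 4 these differences were 0.27 for Rps19, 0.14 for Rps6, 0.27 for Rpsa, 0.32 for Rpl13a, 0.12 for Rps27a and -0.09 for Rpl5.

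Rpl7l1, the large subunit assembly paralog, had the smallest p of the 85 genes in both comparisons of WDF males, though it did not pass. It had 1445, 1230, 1132, 1097 and 1040 in WDF males, 1529, 1392, 1540, 1523 and 1659 in WD males, 1263, 1427, 1504, 1741 and 1665 in CDF males, and 1482, 1247, 1307, 1229 and 1097 in CD males. Of the WDF values 4 lie under every WD and CDF value, and WDF replicate 1 overlaps both groups. The log2 difference was -0.37 ± 0.14 SE against WD males (adjusted p = 0.480) and -0.35 ± 0.14 SE against CDF males (adjusted p = 0.641), while WD males exceeded CD males by 0.27 (adjusted p = 0.751) and CDF males exceeded CD males by 0.25 (adjusted p = 0.908), all by limma. Its difference of differences in males was -0.62 ± 0.19 SE (adjusted p = 0.290 by limma), against 0.43 for the median of the 85 genes. With limma's array weights given to the libraries, it passed the threshold in WDF against WD males (adjusted p = 0.0334), WDF against CDF males (0.0314) and the difference of differences (0.0189). The number of all tested genes that passed with these weights is not given here. Whether Rpl7l1 stood out among them was therefore not tested.

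In females Rpl7l1 had 1298, 1823, 1091, 1846 and 1182 in WDF, 1249, 1287, 1526, 1168 and 1313 in WD, 1357, 1227, 1562 and 2005 in CDF, and 1258, 1310, 1316 and 1513 in CD. These groups overlap, and the female difference of differences was -0.05 ± 0.21 SE (adjusted p = 0.902 by limma). Whether the male and female effects differ was not tested.

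Several ribosomal proteins have a second gene that is used in some tissues. As a share of the summed value of each pair over 38 libraries, not corrected for length, Rpl36al made up 45.5 ± 3.51% of the pair with the X-linked Rpl36a (SD, n = 38), Rpl22l1 made up 43.5 ± 2.79% of the pair with Rpl22, and Rps27l, a target of p53, made up 21.7 ± 3.01% of the pair with Rps27. Rpl7l1 made up 10.6 ± 2.52% of the pair with Rpl7. The pseudogenes Rps4l and Rpl6l made up 3.89 ± 0.699% and 0.63 ± 0.126% of the pairs with Rps4x and Rpl6. The 2 libraries that lead the summed level hold the extremes of several shares. Rps27l had its lowest share, 12.4%, in CD males replicate 4, where Rpl22l1 had its highest, 49.0%, and Rpl36al had its highest, 55.6%, in CDF females replicate 4. By group the Rpl7l1 share was 8.43 ± 1.57% in WDF males, 12.1 ± 2.18% in WD males, 12.02 ± 2.30% in CDF males and 9.81 ± 2.55% in CD males (SD, n = 5 each), and in females it ran between 9.57 ± 2.95% in CDF (n = 4) and 11.5 ± 3.61% in WDF (n = 5).

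The third question was sex. Over the 4 diets the median log2 difference of females minus males was 0.04, with 60 of 85 genes positive (all genes 0.00), and without CDF females replicate 4 it was -0.06, with 17 positive. Over the 38 libraries left out in turn it ran between -0.06 and 0.08, and with all 40 libraries it was -0.06, with 20 positive. By limma 0 of 85 genes passed (all genes 0.0585%) and 0 had an unadjusted p under 0.05 (all genes 3.1%). None of the 4 X-linked genes passed. Rpl10 averaged 10937 ± 2260 in 18 females and 10282 ± 1226 in 20 males, and Rps4x, which in humans has a Y-linked partner, averaged 16209 ± 3660 in females and 15605 ± 1673 in males. Rpl36a averaged 4976 ± 1803 in females and 4981 ± 1382 in males, and Rpl39 averaged 5746 ± 2893 in females and 5232 ± 982 in males (SD). Their log2 differences were 0.08, 0.04, -0.03 and 0.06, each with adjusted p = 0.999 by limma. Without CDF females replicate 4 the 17 females averaged 10497 ± 1315 for Rpl10, 15445 ± 1747 for Rps4x, 4652 ± 1205 for Rpl36a and 5115 ± 1134 for Rpl39, so that the females were lower than the males in the mean of Rps4x, Rpl36a and Rpl39. The log2 differences without it were 0.03, -0.02, -0.10 and -0.04 in the same order. The genes with the smallest p were Rpl15 (0.12), Rps3a3 (0.36) and Rps3 (0.13) among the positive and Rps4l (-0.06), Rpl30 (-0.04) and Rpl31 (-0.04) among the negative. With the short-message covariate 10 of the 85 genes were positive (median -0.12) and 0 passed, while 46 had an unadjusted p under 0.05 (all genes 8.58%). That fit includes CDF females replicate 4, and its values without this library are not given here.

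Genes that work with the ribosome were followed as lists, of which some are given here. The lists of ribosome assembly factors and of genes of mTORC1 and TOP message control are not given by diet. Of ribosomal protein genes with other symbols, Fau, whose product is cut from a ubiquitin-like fusion, stood at 0.82 ± 0.41 SE in CDF against CD females, 0.53 in WDF against CDF males, 0.55 in WDF against WD males and 0.52 in WD against CD females. It stood at -0.69 in WDF against CDF females, -0.39 in WDF against WD females, -0.38 in WD against CD males and -0.37 in CDF against CD males. Rack1, a scaffold on the small subunit, had the same signs, at 0.79 ± 0.40 SE, 0.37, 0.27 and 0.48 in the first set of comparisons and -0.73, -0.42, -0.20 and -0.30 in the second. Neither gene passed in any of them, and without CDF females replicate 4 Fau stood at 0.26 and Rack1 at 0.23 in CDF against CD females. Of 18 translation factors with TOP messages, 15 were higher in CDF than in CD females, with a smaller median of 0.17. Of 78 mitochondrial ribosomal protein genes 71 were higher there (median 0.36), and in WDF against CDF females 6 of 78 were (median -0.35). None of these passed the test in a diet comparison. Without CDF females replicate 4 the translation factors had a median of 0.07 in CDF against CD females (12 of 18 higher), and the mitochondrial genes 0.12 (62 of 78 higher) there and -0.08 (17 of 78) in WDF against CDF females. With the short-message covariate the translation factors had 0.04 in CDF against CD females, and the mitochondrial genes 0.06 (59 of 78) there and -0.05 (25 of 78) in WDF against CDF females. In the sex comparison 1 of the 18 translation factors passed, the X-linked Eif2s3x, an initiation factor subunit (log2 difference 0.57, adjusted p = 1.19e-09 by limma).

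The authors' deposited tables of the folic acid comparisons hold all 85 genes and call none of them at an adjusted p under 0.05, among 4 genes called for CDF against CD females (0.0216%), 7 for CDF against CD males (0.0437%), 0 for WDF against WD females (0%) and 203 for WDF against WD males (1.48%). The fold changes in the authors' deposited tables lie close to 0 for nearly all genes, and are not on the scale of the limma differences above. For CDF against CD females the fold change of a member was at most 0.338 of its standard error. Yet 24 of the 85 had an unadjusted p under 0.05 there (1065 genes of the whole table). The 85 had a median log2 fold change of 0.0099 for CDF against CD females, with 85 of 85 positive, and 0.0325 for WDF against WD males, with 75 positive. For CDF against CD males the median in the authors' deposited tables was -3.57e-06, with 17 positive, and for WDF against WD females -5.21e-06, with 16 positive. The smallest adjusted p of a member in the authors' deposited tables was 0.0926, for WDF against WD males.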

How the data were processed

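RNA of 40 fetal livers was prepared as directional poly(A) libraries and read as paired 43 nt reads, per the labels' protocols. The submitters' processing notes name Trimmomatic 0.39, STAR 2.7.3a, Salmon 1.3.0, DESeq2 1.24 and mm10, with no roles or order. The authors deposited 1 table of signal, which looks like read counts divided by size factors and is no longer whole. Depth in reads is therefore not known and no count test was run. The authors deposited separate tables of folic acid comparisons with log2 fold changes and p-values. All 40 value columns were used, 1 of them matched to CDF females replicate 1 by elimination.

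Values were taken as log2(value + 1), so fold changes of low genes are understated. Genes that reached 10 in 5 or more of 38 libraries (15377, all 85 ribosomal protein genes among them) were fitted with limma 3.58.1 in R 4.3.3 on 8 group means, with a trended and robust variance shared by all groups, and p-values were adjusted by Benjamini-Hochberg over all genes and called under 0.05. The test was checked on simulated data with independent noise for each gene. The ribosomal protein genes move together, so that check does not cover them as a set. Transcript length and GC content come from GENCODE annotation of GRCm38 (20563 of 20593 genes matched), and promoter windows from RefSeq. Genes were named where they were among the 3 with the smallest p in either direction of a comparison, the 5 highest or lowest per kilobase, second copies with their partners, X-linked, known for another role, or among the 3 closest to or farthest from the other members, and the most and least variable genes were named after their values were seen. The genes and lists were chosen with earlier results of these data known. Alternatives covered all 40 libraries, filters, pseudocounts, scalings, library weights, a red cell covariate, a replicate block and leaving out each library. The values of lists and single genes without a library were added after the data were seen. Tables were made with Python 3.11.15 and pandas 2.3.3, and figures with matplotlib 3.10.9. Results for a few genes are not reported here.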

Additional observations from a re-analysis of the deposited data

Results flagged for a closer look

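For each gene that the comparisons describe, the highest and lowest library of each group of 4 or 5 was set against the others by Dixon's gap test at the 95% level. Of 368 groups tested, 44 had such a library, while chance flags about 1 in 20. That rate is no yardstick here, since the genes move together and the groups tested are not independent, and some genes were named for their small p. All 44 come from 3 libraries.

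CDF females replicate 4 had 17. Its values were 122324 for Rps14, 114927 for Rpl13a, 103721 for Rpsa, the laminin receptor and small subunit protein, 73879 for Rplp0, which anchors the stalk, and 58883 for Rps18. Further values were 46767 for Rplp2, 46546 for Rps27a, which is made as a fusion with ubiquitin, 45270 for Rps15, 40001 for Rps3, 29207 for Rps4x and 28300 for Rpl3. The rest were 23410 for Rps26, 22697 for Rps27, 10378 for Rpl5, 4099 for Rps27l, 1297 for Rps4l and 50.8 for Rps3a3. Rps14 had 18212 in the next CDF female.

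CD males replicate 4 had 19, of which 18 were high. They were 59818 for Rpsa, 48936 for Rplp1, 47081 for Rpl13a, 35219 for Rps12, 32841 for Rps14, 32796 for Rplp2, 32128 for Rps18, 31608 for Rpl28, 29253 for Rps15 and 26979 for Rpl41. Others were 26227 for Rps27a, 19257 for Rpl7, 15412 for Rps23, 15179 for Rps19, 13038 for Rps27, 10740 for Rpl24, 9990 for Rps28 and 9833 for Rpl36al. Rpl4 was the low one at 11420, against 15643 in the next CD male.

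CDF males replicate 1 had 8, all high. They were 30814 for Rplp0, 21298 for Rps14, 16761 for Rps27a, 10864 for Rps26, 8524 for Rps27, 7477 for Rpl31, 4514 for Rpl22l1 and 2253 for Rps27l. Rps14 had 12095 in the next CDF male.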

How the results depend on the processing

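No ribosomal protein gene passed the threshold under any alternative except Rpl7l1 with library weights, which was 1 gene past it in WDF against CDF males (log2 difference -0.44), in WDF against WD males (-0.40) and in the male difference of differences. The number of all tested genes past the threshold with library weights is not given here. The short-message covariate, added after seeing the data, moved the median over the 85 genes to 0.10 in CDF against CD females, -0.15 in the male difference of differences and -0.18 in the female one. Directions reversed with the red cell covariate for Rpl7l1 in WD against CD females (0.0267) and Rpl4 in WDF against CDF females (-0.0074), and with library weights for Rps3 in WD against CD females (0.0526) and in females against males (-0.0170). Leaving out 1 library in turn also turned signs, with ranges of -0.10 to 0.0098 for Rpl7l1 and -0.2198 to 0.0908 for Rps3 in WD against CD females, -0.0217 to 0.0914 for Rpl4 in WDF against CDF females, -0.0042 to 0.10 for Rpl5 in WDF against WD females and -0.1091 to 0.0114 for Rpl31 in females against males. The cause was not tested. Over the libraries left out, the median of the 85 genes ran between 0.19 and 0.77 in CDF against CD females, -0.68 and -0.11 in WDF against CDF females, 0.09 and 0.37 in WDF against WD males and -0.41 and -0.15 in WDF against WD females. Pairing by replicate number was checked only between diets within a sex. Of 36 pairs of same-numbered libraries over 8 comparisons, 12 had a correlation of deviations over 0.1, and all lay between -0.54 and 0.27. Males and females of the same diet and number were not compared in this check, so it cannot tell whether they are litter mates. With a replicate block the median was 0.55 in CDF against CD females and 0 genes passed in every comparison. With all 40 libraries the median was 0.42 in CDF against CD females, -0.23 in WDF against CDF females and 0.48 in WD against CD females. An unadjusted p under 0.05 was then found in CDF against CD females for 0 of the 85 and 316 of all 15598 genes tested. In WD against CD females it was found for 5 of the 85 and 2710 of all genes. The pooled western against control diet then had a median of 0.09, with 75 of 85 positive. Precision is limited by 4 or 5 fetuses a group.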
